A study of Mus musculus with 4 samples.

Results

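The 9 α-defensin genes Defa1, Defa3, Defa4, Defa6, Defa20, Defa21, Defa22, Defa23 and Defa-rs7 were followed through every probe that carries one of these names on the 4 arrays, which gave 10 probes of the 41174 on each array, control spots left out. Defa3 has 2 probes and each of the other genes has 1. CD8αβ+ IELs are T cells with the CD8αβ coreceptor that were sorted from small-intestinal epithelium, and CD8αβ+ SPLs are the same kind of T cell sorted from the spleen. All 4 samples came from untreated male wild-type mice of 8 to 12 weeks, 2 samples a group, and the study's methods place its wild-type mice on a C57BL/6 background. The study states that each sample was sorted from several mice, so a sample is a pool and p-values measure the spread between 2 such pools. The comparison asks which antimicrobial genes the intestinal CD8αβ+ T cells express above their splenic counterparts. The list was drawn up with values of these same samples known, and the study singled out α-defensins on them, so the direction of its members is no independent evidence.

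α-Defensins, called cryptdins in the mouse, are short cationic peptides held in a fold by disulfide bonds, and they disrupt bacterial membranes. In the small intestine they are the main product of Paneth cells, the secretory epithelial cells at the base of the crypt. The peptides are made as inactive precursors, and the matrix metalloproteinase Mmp7 cuts the precursor to the active form. The genes form a tandem cluster of near-identical copies, and mouse neutrophils, unlike human neutrophils, lack them.

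The probes are DNA strands of 60 bases, and because the genes are near copies, their sequences show how far a probe can stand for 1 gene. The capitals mark the longest run of bases that a probe has in common with any other of the 10 probes, and a probe pair shown together carries the same run except where another partner is named.

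Defa1 (probe A_52_P578763): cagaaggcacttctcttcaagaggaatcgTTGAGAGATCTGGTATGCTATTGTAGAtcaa
Defa6 (probe A_52_P514200): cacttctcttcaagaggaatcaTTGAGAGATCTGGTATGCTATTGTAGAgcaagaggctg
Defa20 (probe A_52_P249336): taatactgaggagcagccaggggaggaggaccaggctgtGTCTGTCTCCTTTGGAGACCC
Defa-rs7 (probe A_51_P352773): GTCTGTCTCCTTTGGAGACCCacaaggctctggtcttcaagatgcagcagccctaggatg
Defa3 (probe A_52_P460887): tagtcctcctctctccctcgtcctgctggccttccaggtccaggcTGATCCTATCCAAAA
Defa22 (probe A_52_P206002): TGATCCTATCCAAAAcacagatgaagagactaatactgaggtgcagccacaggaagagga
Defa3 (probe A_51_P467086, run shared with Defa20): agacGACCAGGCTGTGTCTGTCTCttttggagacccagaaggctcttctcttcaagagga
Defa21 (probe A_51_P460391, run shared with Defa23): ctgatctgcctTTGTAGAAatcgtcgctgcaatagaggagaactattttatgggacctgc

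The Defa1 and Defa6 probes were the closest pair, with a common run of 27 bases and 51 identical bases of 53 aligned. The Defa20 and Defa-rs7 probes had 21 bases in common, and the Defa20 probe had 20 in common with the Defa3 probe A_51_P467086. At the other end, the longest run that the Defa21 probe had in common with any of the other probes was 8 bases. The 2 Defa3 probes also had a run of only 8 bases in common, since they lie next to each other and do not overlap. Of the 45 pairs of probes, 9 had a run of 15 bases or more in common. No probe outside the list, of 41164 searched on both strands, had a run of 20 bases or more in common with any of the 10.

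The array's annotation, on the mouse build mm9, places 8 of the 10 probes on chromosome 8 between 22166004 and 22845779, and gives no position for the Defa1 and Defa-rs7 probes. The Defa21 probe lies at chr8:22166004-22166063, the Defa23 probe within chr8:22194930-22195548 and the Defa22 probe at chr8:22302055-22302114. The Defa3 probe A_52_P460887 lies at chr8:22427132-22427192 and the Defa3 probe A_51_P467086 at chr8:22427232-22427291, with 39 bases between them. The Defa20 probe lies at chr8:22619859-22619918, the Defa4 probe at chr8:22675993-22676052 and the Defa6 probe within chr8:22845161-22845779. The intervals of the Defa6 and Defa23 probes span 619 bases for a probe of 60, so part of each interval is not covered by the probe. Exon, intron and untranslated region were not assigned, since no gene annotation of mm9 was used here.

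By their annotation the 10 probes carry 22 RefSeq accessions, and 6 of these are listed for 2 probes each. The accession of Defa1, NM_010031, is listed for both the Defa1 and the Defa6 probe, and that of Defa22, NM_207658, for both the Defa21 and the Defa22 probe. The Defa3 probe A_52_P460887 has all its accessions in common with other probes, 2 with the other Defa3 probe and 2 with the Defa23 probe. Current RefSeq annotation (GRCm38.p6) resolves 18 of the 22 accessions to 18 of its 28 α-defensin genes, and 8 probes match 2 to 4 current genes each. The Defa4 probe matches Defa35, Defa36 and Defa37, and the Defa6 probe matches Defa24 and Defa30. In these cases the symbol on the array is not among the current matches, and whether a gene was renamed was not looked up. Through their listed accessions the Defa1 and Defa-rs7 probes match no current gene, and the Defa-rs7 probe lists no RefSeq accession. None of the 10 probes lists more than 4 accessions. The matches are thus those of listed accessions, and which genes a probe's sequence could match was not tested. The symbol printed on the array is among the current matches for 6 of the 10 probes. The values below are therefore those of probes, and signals of single genes within the cluster cannot be told apart by them.

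Values are given as processed intensity and as a scaled log2 level. Processed intensity is the scanner software's brightness of a spot in linear units after background subtraction, but it stays positive for spots at background. The scaled level is log2 of the intensity minus log2 of the 75th percentile of the array's spots, control spots left out. The 75th percentile was 312 units for IEL replicate 1, 435 for IEL replicate 2, 479 for SPL replicate 1 and 605 for SPL replicate 2. No spot was saturated, and none of the 10 member spots on any array was marked as an outlier. Each member probe has 1 spot an array. For probes with repeat spots the median coefficient of variation was 3.76% to 5.53%, the only measure of technical error within an array.

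The arrays did not fall into their groups cleanly. Over 27902 probes the scaled levels of IEL replicate 2 correlated at r = 0.992 with SPL replicate 1, above the 0.946 it reached with IEL replicate 1 and the 0.973 it reached with SPL replicate 2. These are correlations across probes, which are not independent replicates. IEL replicate 1 and SPL replicate 2 were on 1 slide (slide 1), and IEL replicate 2 and SPL replicate 1 were on the other (slide 2), so each slide held both groups and the slide-wise difference can be read for each probe. Scan time coincides with slide. Whether IEL replicate 2 or SPL replicate 1 held cells or RNA of the other tissue was not tested, so each IEL minus SPL value below takes the labels as given, and the values of slide 1, without these 2 samples, stand beside them.

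All 10 probes gave their highest level on IEL replicate 1. The Defa1 probe measured 55960 units on IEL replicate 1, 1375 on IEL replicate 2, 547 on SPL replicate 1 and 18.4 on SPL replicate 2. Its order was IEL replicate 1, IEL replicate 2, SPL replicate 1 and SPL replicate 2 from high to low, and the groups did not overlap. The Defa6 probe, which has most of its sequence in common with the Defa1 probe, measured 55600, 1457, 582.2 and 10.1 units in the same order of arrays. On the log2 scale the mean level of the Defa6 probe was 4.61 ± 4.05 (SD, n = 2) in CD8αβ+ IELs and -2.81 ± 4.37 (SD, n = 2) in CD8αβ+ SPLs. Its log2 difference of 7.42 (171-fold, standard error 2.86) ranked 1 among the 27927 probes tested, and its adjusted p from limma was 0.634. The replicates of a group lay 5.73 (IEL) and 6.18 (SPL) apart, so the difference between the means was little larger than the spread within a group. On SPL replicate 2 the Defa6 value of 10.1 units was close to 7.92 units, the lowest intensity that the scanner software called well above background there. With normexp background correction the log2 difference of the Defa6 probe was 4.86.

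The Defa3 probe A_51_P467086 gave 81680, 2583, 953.5 and 38.9 units on IEL replicates 1 and 2 and SPL replicates 1 and 2. Its log2 difference was 6.79 (110-fold, standard error 2.51). This was the only member with an unadjusted p from limma below 0.05, at 0.049. The Defa20 probe measured 63450, 1643, 640.4 and 23.9 units, and the Defa4 probe 54480, 1481, 613.6 and 27 units. Their log2 differences were 6.92 and 6.67. On IEL replicate 1 the levels of these probes lay above those of at least 99.6% of all probes, and on SPL replicate 2 above 40.7% (Defa20) and 42% (Defa4).

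The Defa21 probe measured 22220, 538.1, 221.3 and 6.70 units, and the Defa22 probe 11770, 209.5, 81.4 and 4.22 units. Neither was well above background on SPL replicate 2, the scanner software's call of a spot clearly brighter than its surroundings, and both were on the other 3 arrays. The fitted log2 differences were 7.04 and 6.95. With the lowest intensity called well above background on SPL replicate 2 (7.92 units) in place of the dim spot, the lower limits were at least 121-fold (Defa21) and at least 90.4-fold (Defa22). These limits rest on which arrays enter the means. With each array left out in turn, that of Defa21 was 15.9-fold without IEL replicate 1, 917-fold without IEL replicate 2, 717-fold without SPL replicate 1 and 20.3-fold without SPL replicate 2. That of Defa22 was 10.2-fold, 800-fold, 326-fold and 25.1-fold in the same order. With normexp background correction the fitted log2 differences were 3.65 and 2.82. The Defa23 probe measured 25670, 476.7, 299.2 and 11.1 units, with a log2 difference of 6.47.

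The Defa-rs7 probe was the dimmest of the 10 on IEL replicate 1, at 1477 units. Defa-rs7 is a related sequence of the family, and its probe measured 41.2 units on IEL replicate 2, 19.9 on SPL replicate 1 and 15.9 on SPL replicate 2. The levels on the SPL arrays thus lay close together, at -4.59 and -5.25 on the log2 scale, while those on the IEL arrays lay 5.64 apart. Its log2 difference was 4.34 (20.3-fold, standard error 1.94), rank 40 of all probes tested.

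**Figure D1:**
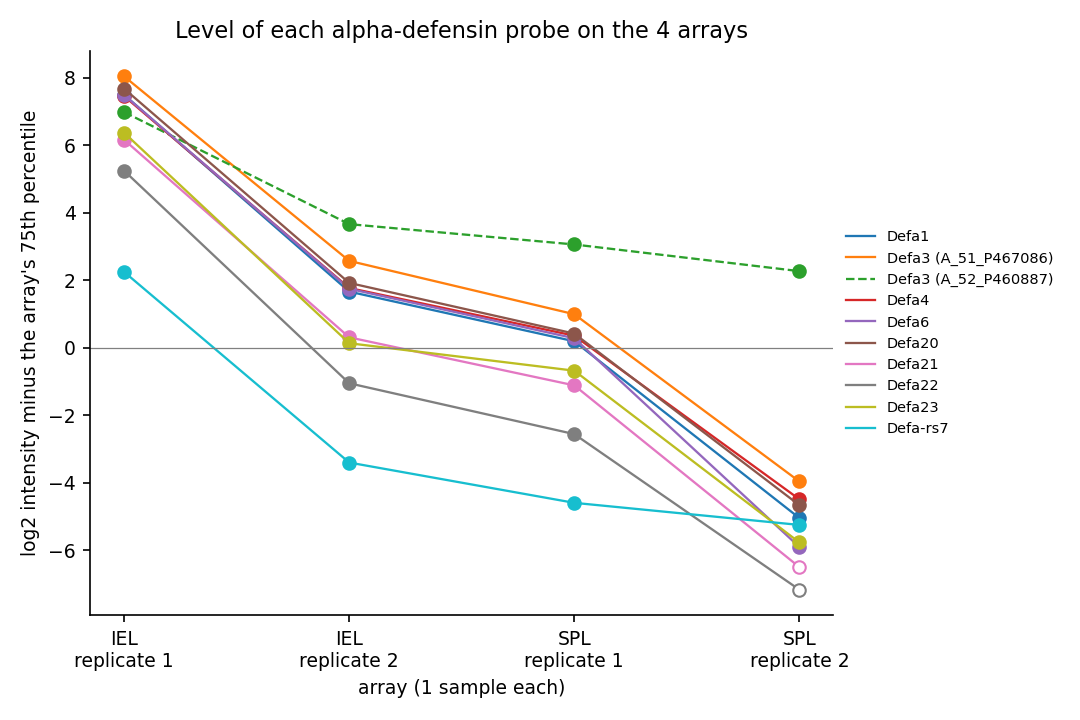
Scaled log2 level (log2 intensity minus the array's 75th percentile) of each of the 10 α-defensin probes on the 4 arrays, with a line for each probe and hollow points for spots not well above background. All probes step down from IEL replicate 1 to SPL replicate 2, and the dashed line of Defa3 probe A_52_P460887 stays at 2.27 on SPL replicate 2, where the other probes are between -7.16 and -3.96.

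None of the 10 probes passed an adjusted p of 0.05 from limma, with 0.634 for each, and neither did any of the 27927 probes tested (0%). At an unadjusted p below 0.05, 1 of 10 was higher in CD8αβ+ IELs, beside 4.64% of all probes tested. Each of the 10 was higher on both IEL arrays than on both SPL arrays, an order that 24.4% of all probes tested had. The Defa21 and Defa22 probes entered the test only through the IEL arrays, where they are high. Their direction was thus favoured in advance in this count and in the counts of order and of 2-fold differences below. The full order IEL replicate 1, IEL replicate 2, SPL replicate 1, SPL replicate 2 held for 10 of 10 members and for 13.8% of all probes tested. With 2 arrays against 2, an exact two-sided permutation test of a single probe cannot go below p = 0.33. The median log2 difference over the 9 genes, each by its brightest probe, was 6.92, and the median over all probes tested was -0.00072.

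IEL replicate 2 decided the count of calls. Without it, 9 of the 10 probes passed an adjusted p of 0.05 from limma, beside 9.11% of the 28441 probes then tested that were called higher. The lone IEL array is then assumed to vary like the SPL arrays. The Defa6 probe, with an adjusted p of 0.0571, was the exception, and the others ran from 0.00427 for Defa-rs7 to 0.0451 for Defa21. With each of the other 3 samples left out in turn, none of the 10 was called, so the calls rest on which array is set aside. By the methods' unpaired test on the same values, none of the 10 had an unadjusted p below 0.05, beside 1.68% of all probes called higher.

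The size of the difference came from slide 1. There, 9 of the 10 probes were between 7.49 and 13.4 higher in CD8αβ+ IELs on the log2 scale, and 8 of them were between 11.9 and 13.4. On slide 2 the differences of the same 9 probes were between 0.813 and 1.58, or 1.76-fold to 2.99-fold. The Defa6 probe had a difference of 13.4 on slide 1 and 1.47 on slide 2, and the Defa23 probe 12.1 and 0.81. A difference of at least 2-fold on both slides was found for 8 of 10 members, beside 1.79% of all probes tested. The exceptions were the Defa23 probe and the Defa3 probe A_52_P460887. With slide as a block in the fit, the adjusted p from limma was 0.597 for each member.

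**Figure D2:**
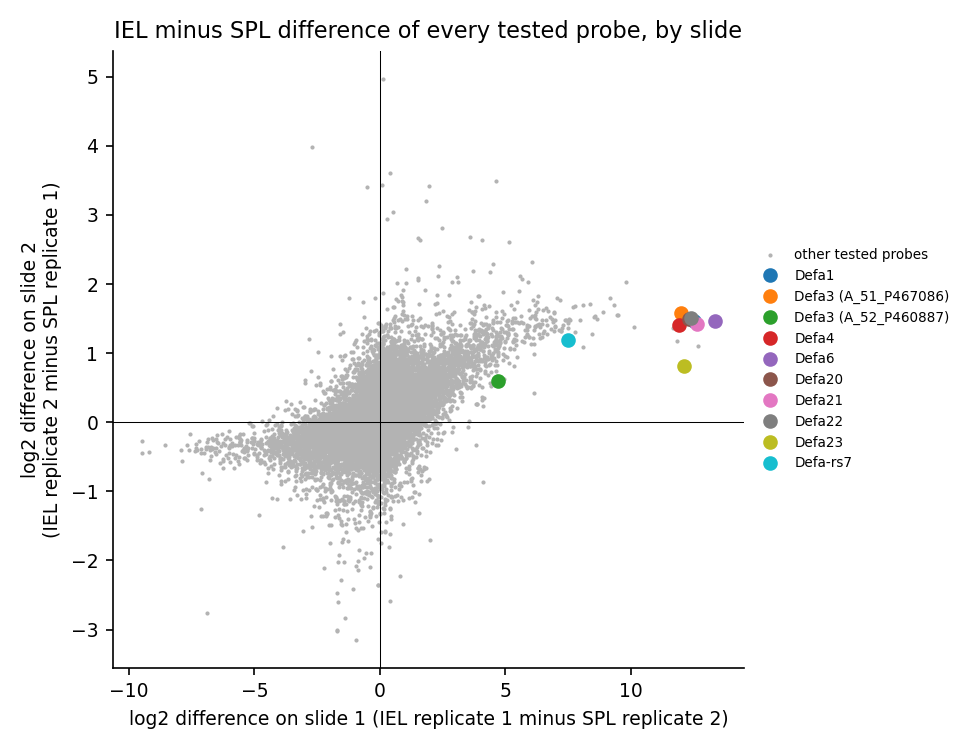
Log2 difference between CD8αβ+ IELs and CD8αβ+ SPLs on slide 1 (horizontal) and on slide 2 (vertical) for every tested probe in grey, with the 10 α-defensin probes in colour. Of the 10, 8 lie between 11.9 and 13.4 on slide 1 and between 0.813 and 1.58 on slide 2, and the scales of the 2 axes differ.

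Read array by array, 9 of the 10 probes had steps close to one another between the IEL arrays. From IEL replicate 1 to IEL replicate 2 the log2 difference was 5.46 to 6.29 for the 9 probes other than A_52_P460887, with a median of 5.75 and an SD over probes of 0.27. From IEL replicate 2 to SPL replicate 1 it was 0.813 to 1.58, with a median of 1.46. From SPL replicate 1 to SPL replicate 2 it was 4.61 to 6.18 for 8 of them and 0.65 for Defa-rs7. The gap between the groups, IEL replicate 2 over SPL replicate 1, was thus the smallest of the 3 steps for these 8 probes, and smaller than the gap between replicates in both groups. Over all probes tested the same 3 steps had medians of 0.01, 0.0017 and -0.02 on the log2 scale.

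The steps are given beside the runs in common for several of the probes. The Defa21 probe, with no run over 8 bases in common with another member, had steps of 5.85, 1.42 and 5.38. The Defa1 probe had steps of 5.83, 1.47 and 5.23, and the Defa6 probe, its closest relative in sequence, 5.73, 1.47 and 6.18. The Defa20 and Defa-rs7 probes, with 21 bases in common, differed by 4.43 in the last step. The Defa3 probe A_52_P460887, with 15 bases in common with the Defa22 probe, differed from the latter in the first and the last step, with 3.32 and 0.79 against 6.29 and 4.61. No test was made of this, since the probes share their arrays and are no replicates of each other.

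The 2 Defa3 probes lie 39 bases apart and carry 2 accessions in common, of Defa3 and Defa17, and they disagreed. Probe A_52_P460887 measured 39280 units on IEL replicate 1, 5494 on IEL replicate 2, 3991 on SPL replicate 1 and 2911 on SPL replicate 2. From IEL replicate 1 to IEL replicate 2 its log2 level differed by 3.32, where probe A_51_P467086 had 5.46. From SPL replicate 1 to SPL replicate 2 its level differed by 0.79, where the other probe had 4.95. Its difference between the groups was 2.66 (6.30-fold, standard error 1.18, rank 265), against 6.79 for the other probe. On slide 1 the difference was 4.71 by this probe and 12.0 by the other, and on slide 2 it was 0.60 and 1.58. Both probes gave the same order of arrays. Probe A_52_P460887 is the brighter of the pair over the 4 arrays by mean log2 level, so a rule that takes the brightest probe of a gene gives Defa3 a 6.30-fold difference and leaves out the probe with 110-fold. The median over the 9 genes was 6.92 by either the brightest probe or the mean of a gene's probes. Whether probe A_52_P460887 binds other transcripts was not tested. At runs of 20 bases it matched no other probe on the array, but a probe covers only part of a transcript, so that search cannot answer this.

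**Figure D3:**
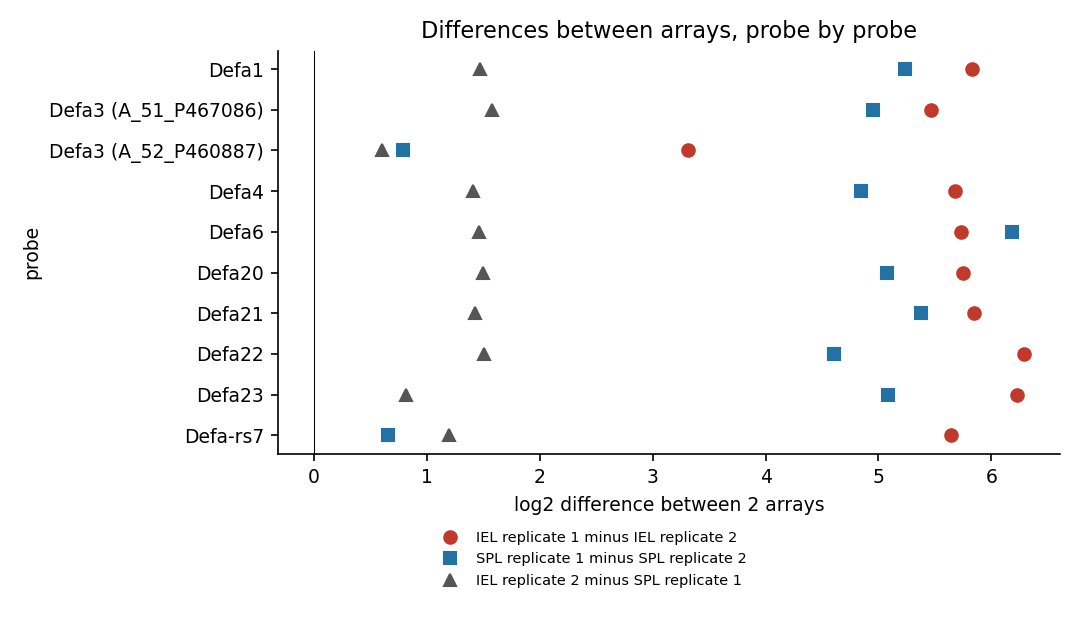
Log2 differences between pairs of arrays for each of the 10 probes, with circles for IEL replicate 1 minus IEL replicate 2, squares for SPL replicate 1 minus SPL replicate 2 and triangles for IEL replicate 2 minus SPL replicate 1. Circles lie between 5.46 and 6.29 except for Defa3 probe A_52_P460887 at 3.32, and squares lie between 4.61 and 6.18 except for that probe at 0.79 and Defa-rs7 at 0.65.

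Each array carries 153 negative control spots, whose sequences match no mouse transcript and which give the level of an empty spot. Of these spots, 95% were at or below 2.03 units on IEL replicate 1, 2.12 on IEL replicate 2, 1.80 on SPL replicate 1 and 2.07 on SPL replicate 2. All 10 member probes were above that level on every array, including the 2 spots not called well above background. The control spots had median processed intensities of 1.48 to 1.69 units, while their medians after background subtraction were negative, at -2.06 to -1.69. For such dim spots the processed value is thus no measured brightness, and a place above that level does not show signal. On SPL replicate 2, 1 control spot was at 2890 units, and that spot alone brought the mean of its control spots to 17.2 units after background subtraction, while their median was -1.91. Measured against the control spots as a whole, the dimmest member value, 4.22 units for Defa22 on SPL replicate 2, was above the 95% level by a small margin, and the next, 6.70 units for Defa21, was below the 7.92 units at which calls of well above background began on that array.

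**Figure D4:**
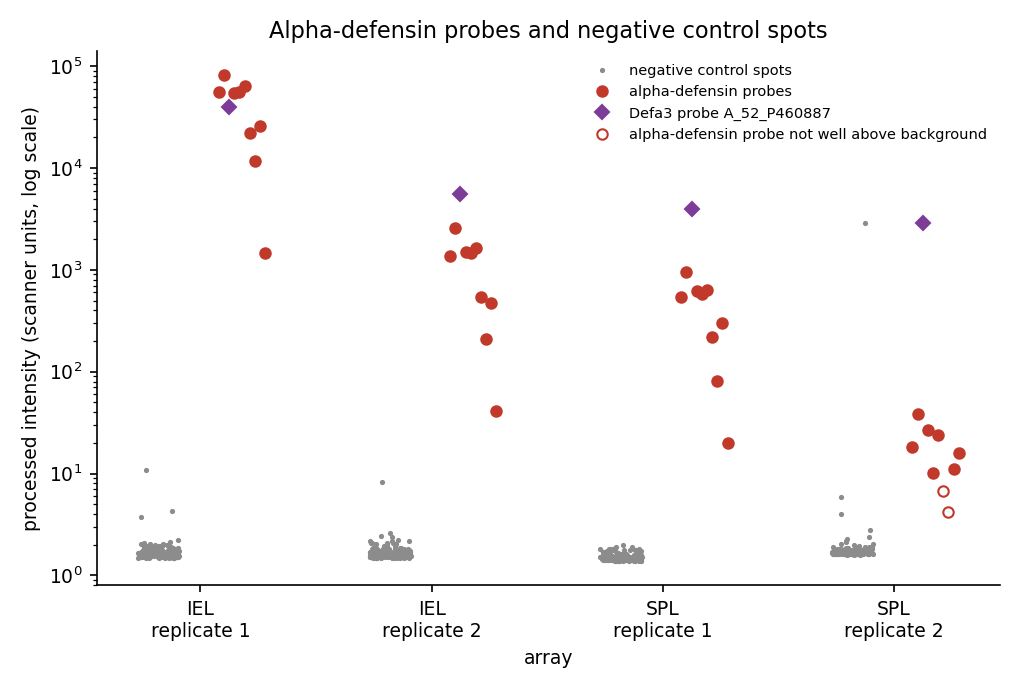
Processed intensity on a logarithmic axis for the 153 negative control spots (grey) and the 10 α-defensin probes on each array, with hollow circles for spots not well above background and a diamond for Defa3 probe A_52_P460887. The members are above 95% of the control spots on every array, and on SPL replicate 2 they come down to 4.22 units while 1 control spot stands at 2890 units.

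Other probes of the family gave mixed values. The 2 probes named Defa-rs2 did not clear background on any of the 4 arrays. The Defa-rs12 probe was well above background only on IEL replicate 1, at 74.4 units, against 1.55, 2.40 and 1.63 on the others, and was not tested. The probe of transcript TC1593310, which the array describes as a cryptdin related sequence and which was picked by that description after its values were seen, measured 7.82 and 9.97 units on the IEL arrays and at most 10.9 units on the SPL arrays. Its scaled log2 difference was 0.26 (adjusted p 0.694 from limma), so it did not share the profile. The 2 probes named AY761184 carry accessions of the current genes Defa29, Defa38, Defa39, Defa42 and Defa43 under a name that hides the family. They were looked up after their profile had been seen. Probe A_52_P178718 measured 24700, 518, 253 and 13 units, with a log2 difference of 6.51, of 11.9 on slide 1 and of 1.18 on slide 2. Probe A_52_P592970 measured 17000, 264, 136 and 5.01 units, with a log2 difference of 6.89, and was not well above background on SPL replicate 2. Both had an adjusted p of 0.634 from limma.

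Of 18220 other named genes, each by 1 probe, Itln1 had the profile over the 4 arrays closest to the mean of the 9 genes. Itln1 encodes intelectin 1, a lectin that Paneth cells secrete. Its root mean square distance from the mean profile was 0.24 on the log2 scale, with levels of 3.17, -2.54, -3.90 and -8.52. AY761184 followed at 0.28. The next 8 lay at 1.09 to 1.33, and were Chgb (chromogranin B of enteroendocrine granules), Cables1, Spink4 (a secreted protease inhibitor of goblet cells), the unnamed transcript NAP099517-001, 1810030J14Rik, AK086288, Krt8 (an epithelial keratin) and Fcgbp (a mucus protein of goblet cells). Itln1 was well above background on 3 of the 4 arrays. On SPL replicate 2 the levels of Itln1 (-8.52), 1810030J14Rik (-8.45) and AK086288 (-8.56) were close to that of a Defa-rs2 probe (-8.55). That Defa-rs2 probe cleared background on no array, so the last step of these profiles rests on background values. With 4 arrays, likeness of profile is a description of these samples.

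Marker genes of several cell types were set beside the α-defensins, and none of them passed the test. Mmp7, which processes the precursors, had levels of 0.62, -3.60, -4.58 and -5.53 on IEL replicates 1 and 2 and SPL replicates 1 and 2, a log2 difference of 3.57. Over the Paneth cell list without α-defensins, 15 of 17 genes were on the array and 12 were tested. Of these, 10 were higher in CD8αβ+ IELs by their mean, 8 were higher on both IEL arrays than on both SPL arrays, and the median log2 difference was 1.92. Its summed level, in units of each array's 75th percentile, was 45.2 on IEL replicate 1 and 5.59, 5.89 and 6.28 on the other arrays. That is not the order of the members, and the brightest gene of the list made up the largest part of each sum. Among the tested genes, Mmp7, Itln1, Reg3g, Reg3b, Reg3a and Nupr1 each had the members' order of arrays. Lyz1, Ang4, Gpr37l1, Fgfrl1, Sox9 and Ephb3 did not. For dim spots this order says little, since the 75th percentile used for scaling rises from IEL replicate 1 to SPL replicate 2. A Defa-rs2 probe that cleared background on no array had the same order, at -7.67, -8.06, -8.39 and -8.55. Reg3a was well above background on 2 of the 4 arrays, with levels of -7.56 and -7.74 on the SPL arrays. Lyz1, the Paneth cell lysozyme and the brightest gene of the list, had levels of 4.66, 1.97, 2.30 and 2.35. Lyz1 was therefore higher on IEL replicate 1 only, and on slide 2 its difference was -0.33. Habp2 was at background on all 4 arrays.

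Summed levels of markers of other epithelial cells had the same order of arrays as the members. The goblet cell list had 7 of 7 genes higher in CD8αβ+ IELs with a median log2 difference of 4.06, and its summed level was 39.0 on IEL replicate 1, 4.55 on IEL replicate 2, 1.64 on SPL replicate 1 and 0.31 on SPL replicate 2. Tff3, a goblet cell peptide, had levels of 3.62, 0.40, -0.92 and -3.63. The general epithelial list had 10 of 10 higher with a median of 3.24 and sums of 33.0, 7.26, 4.08 and 2.32. Cdh1, the adhesion protein E-cadherin, had levels of 2.47, 0.70, -0.57 and -4.18. The enterocyte list had 7 of 8 higher, with a median of 1.14 and sums of 3.37, 2.17, 1.23 and 0.65. None of these genes passed the test. The part of epithelial RNA in the α-defensin values was not tested.

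Transcripts of CD8 T cells, the kind of cell that both labels share, were present on every array, and they do not tell IELs from SPLs. Summed levels of the 9 T cell genes, among them Cd8a and Cd8b1, were 786 to 882 over the arrays. The 6 genes of intraepithelial lymphocytes were all higher in CD8αβ+ IELs, with a median of 3.14, none past the test, and sums of 899, 307, 134 and 26.9. Gzmb, a granzyme of cytotoxic cells, had levels of 8.56, 6.79, 5.51 and 0.10, so SPL replicate 1 was far above SPL replicate 2. B cell genes had sums of 3.58, 20.2, 25.9 and 19.7, erythroid genes 1.14, 75, 99 and 116, and neutrophil granule genes 0.36, 36.0, 44.5 and 50.2, so IEL replicate 2 was close to the SPL arrays and far from IEL replicate 1 in each. The neutrophil list had a median log2 difference of -3.64, with 1 of 8 tested genes higher in CD8αβ+ IELs, and the level of S100a8 was -6.41 on IEL replicate 1, where the members were at their highest. The study's methods give a flow-cytometric sort to high purity for these samples, a step meant to remove all these other cells. In bulk RNA, a smaller number of cells of a type and less RNA per cell cannot be told apart.

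**Figure D5:**
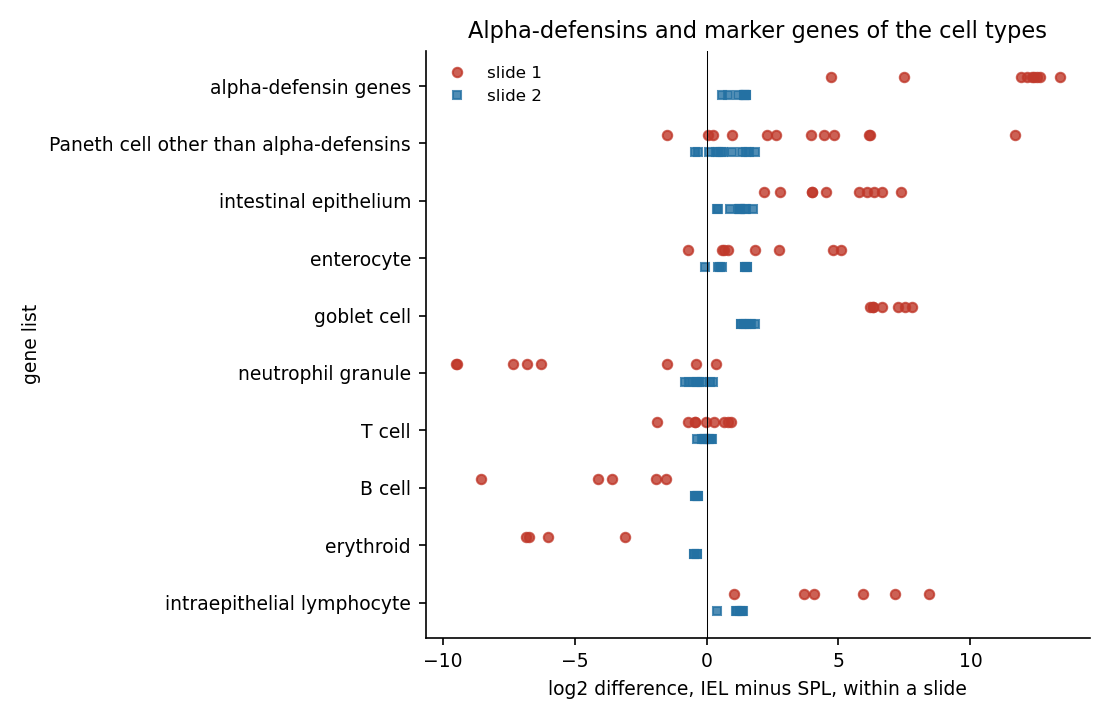
Log2 difference between CD8αβ+ IELs and CD8αβ+ SPLs within slide 1 (circles) and within slide 2 (squares) for the 9 α-defensin genes, each by its brightest probe, and for the tested genes of 9 marker lists. Epithelial and goblet cell genes are higher on both slides, B cell and erythroid genes are lower on both, and the median difference is nearer to 0 on slide 2 in every list but that of T cells, where both medians are near 0 (-0.0192 and -0.0535).

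The stretches before the transcription starts of α-defensin genes were compared as sequences, and no test against the levels on the arrays was made. RefSeq (GRCm38.p6) gave a promoter for 16 α-defensin genes, 11 of which are matched by a member probe. Of the listed symbols, only Defa20, Defa21, Defa22 and Defa23 are among these genes, and Defa1, Defa3, Defa4, Defa6 and Defa-rs7 have no promoter there. The 250 bases before the annotated start are shown for Defa21, whose stretch is identical to that of Defa22, for Defa23 from the same cluster, and for Defa38, which lacks the repeated motif that the other 2 carry. Capitals mark TATAAA, the core of a TATA box, and ATCAAAG.

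Defa21 (chr8:21025295-21025544, plus strand): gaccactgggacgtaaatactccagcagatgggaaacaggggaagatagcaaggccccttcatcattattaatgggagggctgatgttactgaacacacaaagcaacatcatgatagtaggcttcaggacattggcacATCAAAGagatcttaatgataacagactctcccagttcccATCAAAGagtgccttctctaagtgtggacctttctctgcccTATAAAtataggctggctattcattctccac
Defa23 (chr8:21054790-21055039, plus strand): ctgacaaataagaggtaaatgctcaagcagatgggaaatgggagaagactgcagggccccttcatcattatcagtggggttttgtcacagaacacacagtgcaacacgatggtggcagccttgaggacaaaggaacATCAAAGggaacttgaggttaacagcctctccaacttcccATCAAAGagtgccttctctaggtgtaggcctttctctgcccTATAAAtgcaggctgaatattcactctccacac
Defa38 (chr8:21096051-21096300, minus strand): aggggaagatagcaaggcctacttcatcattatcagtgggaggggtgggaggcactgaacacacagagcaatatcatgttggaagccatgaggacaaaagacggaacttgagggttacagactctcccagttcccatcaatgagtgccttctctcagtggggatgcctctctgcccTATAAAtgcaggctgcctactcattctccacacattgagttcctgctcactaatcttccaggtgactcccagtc

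TCF/LEF proteins, the DNA-binding partners of β-catenin in Wnt signalling, recognise a core motif of which CTTTGAT is a form, and ATCAAAG is its reverse complement. On either strand this motif was found in 13 of 16 α-defensin promoters and in 10 of the 11 matched by a member probe, beside 3.21% of 32851 promoters of the same length. Of the 13, 9 held it 2 times, and 0.0822% of all promoters held it at least 2 times. The 3 without the motif were Defa38, Defa42 and Defa43. These genes are matched by the AY761184 probe A_52_P178718, as is Defa39, which has no promoter among the 16. The signal of that probe cannot be assigned to any single gene of these. In Defa21 the motif lies 112 and 72 bases before the start, and in Defa23 114 and 74 bases before it. The variants CTTTGAA and CTTTGTA were found in none of the 16, beside 4.46% and 3.20% of all promoters. TATAAA was found in 15 of 16, and in 11 of the 11 matched, beside 12.37% of all. In these 16 promoters no match overlapped another. The stretches of Defa21 and Defa20 were 98% identical and those of Defa21 and Defa23 78%, so the promoters are copies and not separate instances of a motif. Each match is a description of these letters, and no measurement of binding was made.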

How the data were processed

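The deposited scanner files hold, per the file headers, 1-colour intensity values of Agilent whole mouse genome arrays (Agilent-014868, mm9 annotation), which the authors extracted with Feature Extraction (10.7.3.1 in the header, 10.7.1.1 in the submitters' processing notes). The study's methods name PrimeView chips and MeV instead, so the files were taken as the record. The deposited value table holds log2 values with equal distributions in each column; it served as an alternative. Log2 processed intensity was scaled by each array's 75th percentile. Outlier-marked spots were left out and repeat spots averaged. Tested were the 27927 probes that cleared background on both arrays of a group (2 against 2 arrays, no block) with limma 3.58.1 in R 4.3.3 and Benjamini-Hochberg adjustment at 0.05, after a test on simulated data. Slide came from the array barcode. Number of arrays and signal over background limit the precision. Named were all members and their probes, other Defa or Defcr names, Mmp7, the 10 nearest profiles and up to 4 bright genes a marker list. The members, lists and tests were chosen with earlier results of these data known. Alternatives were 2 other scalings, 2 normexp corrections (offset 50), the authors' table, 2 filters, kept outliers, the methods' test, blocks by replicate number or slide, 1 sample left out, a threshold of 0.01 and another rule for a gene's probe. Whether replicate numbers or slides pair the samples could not be decided. With 2 arrays a group, the deviations within a group mirror each other. The correlations of deviations, -0.03 by replicate number and 0.03 by slide, are therefore 1 value with its sign turned. Sequences were aligned with Biopython 1.88; accessions, symbols and promoters came from RefSeq (GRCm38.p6).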

Additional observations from a re-analysis of the deposited data

How the results depend on the processing

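None of the 10 probes changed direction under any alternative in which it was tested, 15 for each but Defa21 and Defa22, which the filter on all 4 arrays leaves out. For the filters, kept outliers, blocks, the methods' test and 1 sample left out, this was fixed in advance. These fits use the same log2 values, in which both IEL arrays lay above both SPL arrays for each member. Between 0 and 9 of the 10 were called with 1 sample left out in turn, and between 0 and 5523 of all probes, and both upper values came from leaving out IEL replicate 2. Of the single-probe values under alternatives, 139 kept their side of the threshold and 9 passed it, all 9 without IEL replicate 2. The median over the 9 genes was 3.83 to 9.79 with 1 sample left out. It was 3.68 with normexp, where the median of all probes was -0.38, and 5.20 with normexp without spots far below their local background, where that median was 0.15. It was 6.84 with quantile normalization, and the lowest single value was 0.70 for Defa-rs7 with normexp. Without a filter the median of all probes was 0.15. The cause of these shifts was not tested. With the replicate number as a block, 0 of the 10 members and 0 of all probes passed, and the median difference was 6.92. The adjusted p from limma was then 0.138 to 0.543 for the members. All 10 members, and 2132 of all probes, had an unadjusted p from limma below 0.05. Whether the replicate numbers pair the samples could not be decided. Signal over background limits the dim Defa21 and Defa22 values on SPL replicate 2. Values of Defa6, Defa23, Defa-rs7 and Defa1 there, 10.1, 11.1, 15.9 and 18.4 units, were also close to the 7.92 units at which calls of well above background began. With normexp their log2 differences were 4.86, 3.68, 0.70 and 4.45.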
